A study of Mus musculus with 8 samples.

Results

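The immunoglobulin light chain loci of the mouse were examined in an ATAC-seq comparison of hematopoietic stem cells (HSCs) from old and young bone marrow. The members are every deposited peak lying fully inside 2 windows of the mm9 genome, chromosome 6 from 67.5 to 70.69 Mb for the kappa locus (Igk) and chromosome 16 from 19.02 to 19.27 Mb for the lambda locus (Igl). There were 23 such peaks at Igk and 1 at Igl, together 24 of the 126871 peaks in the table. ATAC-seq inserts sequencing adapters into open chromatin with a transposase, so the read count over a peak follows its accessibility.

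The HSCs were C57BL/6 cells sorted as LSK CD150+ CD48-, a gate on surface markers of primitive marrow cells that the old and the young cells share. The titles give 4 old and 4 young libraries, numbered 1 to 4 in each group. The labels give no ages or sex, and do not say that replicates came from separate mice. The spread that p-values rest on may therefore be technical, and age and whatever else differed between the groups cannot be told apart. Totals ran from 4200905 to 5129684 counts per library. Levels are in CPM, counts scaled to a common library size with TMM scaling, on which 1 count was worth 0.207 to 0.255 CPM. Old replicate 4 stood between the groups: its log2 levels over all tested peaks correlated at 0.919 on average with the other old libraries, which reached 0.941 to 0.945, and at 0.907 with the young ones. Several Igk results and the summed Igh level are therefore also given without it.

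A light chain pairs with a heavy chain to form an antibody. Its gene is assembled in developing B cells, when the RAG recombinase joins a variable (V) segment to a joining (J) segment upstream of a constant region. In the mouse most antibodies carry a kappa chain, and the kappa locus is far larger than the lambda locus. Light chain rearrangement comes late, after the heavy chain gene (Igh) has been assembled, and HSCs carry these loci in their unrearranged, germline form. Along the B lineage V and J segments become accessible in steps, under the control of enhancers near the constant region.

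RefSeq's gene table for GRCm38.p6, used only for names and order because its build is not that of the peaks, lists 102 kappa V segments, 60 kappa V pseudogenes and 5 kappa J segments. The series starts with Igkv2-137 at the low-coordinate end and ends with Igkv3-1 and Igkj1 to Igkj5 at the high-coordinate end. The nearest protein-coding gene above the segments is Rpia, and 0 protein-coding genes are listed among them. For lambda the table lists 3 V segments, 3 J segments and 2 J pseudogenes, with Iglj1 first and Iglv2 last, between Hira below and Olfr164 above. Which segment lies under which peak was not analysed here. V segments belong to families of similar sequence, and how reads that map to several copies were treated is not given in the sources used here, so a level over such sequence is uncertain.

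Both loci held few peaks. The Igk window carried 7.21 peaks per Mb and the Igl window 4.0 per Mb, against 49.2 per Mb over all chromosomes between their first and last peaks. The 1 Mb on each side of Igk held 67.0 peaks per Mb, and the 1 Mb on each side of Igl 75.5 per Mb. Of 796 adjoining stretches as long as the Igk window 7.91% had 23 peaks or fewer, and their median was 145. Of 10299 stretches as long as the Igl window 21.1% had 1 peak or none. The longest interval without a peak inside Igk was 612 kb, between 68854519 and 69466280, and 0.233% of all intervals between neighbouring peaks were as long or longer. Other long intervals were 430 kb from 68151766 and 394 kb from 70265191. Thus 18 of the 32 windows of 100 kb along Igk had no peak at all.

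The Igk peaks were mostly narrow and weak. Their median width was 328 bases, against 407 over all peaks, and their median level 1.32 CPM, against 2.76 CPM over all peaks. The strongest Igk peak, at 15.6 CPM on average, stood at percentile 85.7 of all peaks, and the Igl peak, at 0.507 CPM, at percentile 2.62. Only 9 Igk peaks passed the count filter used for the test (edgeR's filterByExpr), and the Igl peak did not. The table's shared peak set was made by the authors, so stretches without a peak were not measured here and may still hold reads.

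**Figure D1:**
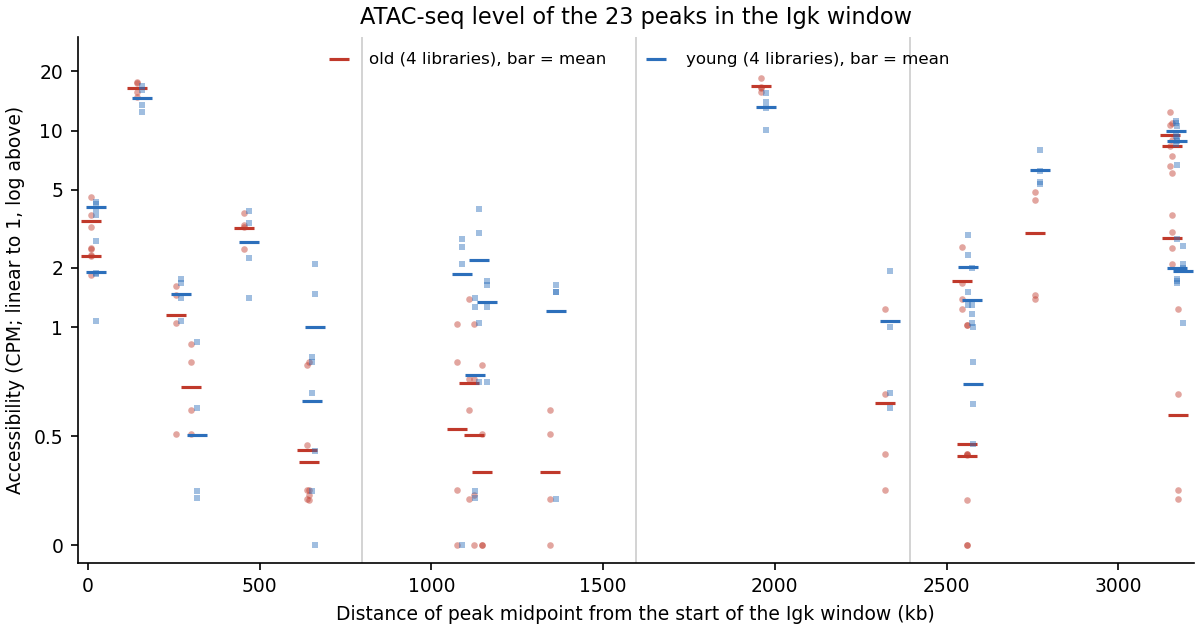
Accessibility of the 23 Igk peaks (y axis, CPM, linear up to 1 and logarithmic above) against distance of the peak midpoint from the start of the window (x axis, kb). Small points are the 4 old (red circles) and 4 young (blue squares) libraries, bars are group means and grey lines divide the window into 4 equal parts; 2 peaks stand near 15 CPM and most others under 3 CPM.

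Of the 9 tested Igk peaks 1 was lower in old HSCs and 0 were higher (quasi-likelihood test of edgeR, with p adjusted by Benjamini-Hochberg over 73164 tested peaks and called below 0.05). Over all tested peaks 10.4% were called lower, 10% higher and 20.5% in either direction. The share called lower over all peaks was 15.5% without old replicate 4 and 6.90% to 10.5% with any other library left out, the lowest without old replicate 2. At an unadjusted p below 0.05, 1 of the 9 Igk peaks was lower and 1 higher, as were 16.7% and 16.5% of all tested peaks. DESeq2's test called 0 in either direction, where it called 7.13% of all tested peaks lower and 6.82% higher. With limma voom 1 was lower and 0 higher, where 10.7% of all tested peaks were lower and 9.83% higher. The median log2 fold change of the 9, old minus young, was 0.15, with 5 above zero and 4 below, and over all tested peaks it was 0.01.

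The called peak lay on chromosome 6 from 70264477 to 70265191, the only peak in its window of 100 kb. Its level was 4.84, 4.42, 1.38 and 1.45 CPM in old replicates 1 to 4 and 5.36, 8.0, 5.50 and 6.25 CPM in young replicates 1 to 4. All old libraries lay below all young ones, and old replicates 3 and 4 were far lower than old replicates 1 and 2. The group means were 3.02 ± 1.86 CPM in the old and 6.28 ± 1.21 CPM in the young libraries (mean ± SD, n = 4 each). The log2 fold change was -1.07 with an SE of 0.34 (adjusted p = 0.0284, edgeR). In bulk libraries fewer cells with the site open and less opening per cell cannot be told apart. Without old replicate 4 the change was -0.82 (adjusted p = 0.0412, edgeR). The call was lost without old replicate 3 (log2 fold change -0.83, edgeR adjusted p = 0.102), young replicate 2 (-0.93, adjusted p = 0.0795) or young replicate 4 (-1.08, adjusted p = 0.0581). It was also lost with DESeq2's test (-1.07, adjusted p = 0.0534).

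No change was called at the strongest Igk peaks. The peak from 67649038 to 67649519 had 17.6, 15.8, 17.5 and 14.9 CPM in old replicates 1 to 4 and 12.4, 16.8, 13.5 and 16.2 CPM in young replicates 1 to 4. The groups overlapped there, with a log2 fold change of 0.15 with an SE of 0.15 (adjusted p = 0.519, edgeR).

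The other strong peak, from 69466280 to 69466628, stood alone at the far side of the longest interval without a peak. It had 15.8, 16.6, 18.5 and 16.5 CPM in old replicates 1 to 4 and 10.03, 13.1, 15.5 and 14 CPM in young replicates 1 to 4. All old libraries lay above all young ones, but by a narrow margin between old replicate 1 and young replicate 3. The log2 fold change of 0.36 (SE 0.16) did not pass the test (adjusted p = 0.107, edgeR, and 0.0776 to 0.294 over 15 alternatives). It was the only Igk peak of 23 with every old library above every young one, as were 8.28% of all deposited peaks.

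The high-coordinate end of the kappa series, where the J segments come after the last V segment, held a small cluster of peaks. The peak from 70659271 to 70660013 had 6.62, 10.7, 8.30 and 12.4 CPM in old replicates 1 to 4 and 9.33, 10.9, 8.50 and 11.2 CPM in young replicates 1 to 4. The peak from 70664238 to 70664687 had 6.11, 10.9, 9.0 and 7.44 CPM in old replicates 1 to 4 and 8.86, 10.5, 9.25 and 6.68 CPM in young replicates 1 to 4. At both peaks the young range lay inside the old one, and log2 fold changes were -0.06 (SE 0.20) and -0.07 (SE 0.21), with adjusted p of 0.865 and 0.861 in edgeR. Their sign turned when single libraries were left out.

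Between them the peak from 70663191 to 70663452 had 3.06, 2.10, 2.54 and 3.72 CPM in old replicates 1 to 4 and 2.80, 1.68, 1.75 and 1.72 CPM in young replicates 1 to 4. The groups overlapped through young replicate 1, and the log2 fold change of 0.52 (SE 0.34) did not pass the test (adjusted p = 0.304, edgeR). The last peak of the window, from 70680832 to 70681199, was weak and went the other way. It had 1, 1, 3 and 6 counts in old replicates 1 to 4 and 9, 5, 8 and 12 counts in young replicates 1 to 4, so that the groups overlapped only through old replicate 4 and young replicate 2. It did not pass the count filter. The last 30 kb hold the 3 peaks from 70663191 onwards, and not the stronger peak from 70659271, which starts before that stretch. Together these 3 peaks summed to 11.8 ± 1.67 CPM in the old and 12.8 ± 1.22 CPM in the young libraries (mean ± SD, n = 4 each), and the groups overlapped.

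**Figure D2:**
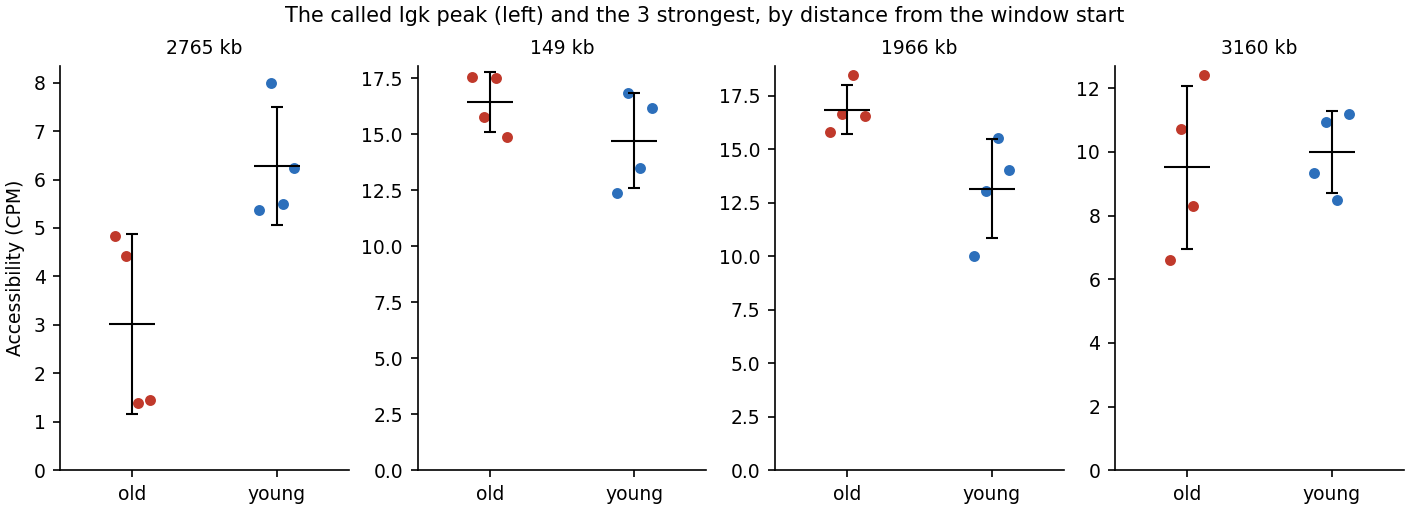
Accessibility (y axis, CPM from 0) in each old (red) and young (blue) library for the called Igk peak at 2765 kb from the window start and for the 3 strongest Igk peaks, titled by the same distance. Bars are means with SD (n = 4 each); the groups are apart at the called peak, narrowly apart at 1966 kb and overlapping at 149 and 3160 kb.

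At the low-coordinate end, where the V series begins, the first peak inside the window lay from 67515551 to 67516146. It had 4.58, 2.31, 3.23 and 3.72 CPM in old replicates 1 to 4 and 3.73, 4.21, 4.0 and 4.31 CPM in young replicates 1 to 4, with overlapping groups and a log2 fold change of -0.24 with an SE of 0.28 (adjusted p = 0.585, edgeR). The nearest peak outside ended 96 bases before the window, at 67499904, and held 43 counts over the old and 24 over the young libraries. At the other end the nearest peak outside began 12462 bases after the window and held 15 counts in old and 24 in young libraries. The remaining tested Igk peaks, from 67516274 to 67516609 and from 67961822 to 67962057, had log2 fold changes of 0.29 and 0.21 and did not pass the test.

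Of the 14 Igk peaks below the count filter 13 had a lower fitted level in old HSCs. They were fitted with no count filter, an alternative planned for the whole table, in which 126871 peaks were tested and 7.69% of them called lower, 8.46% higher. In that fit 17 of the 23 Igk peaks had a negative log2 fold change, with a median of -0.29, and 3 were called lower and 0 higher. Of all deposited peaks 49.5% had a negative value and the median was 0.01. That set includes strong peaks. Among deposited peaks with a mean of 0.551 to 1.32 CPM, a range that holds 12 of the 14, 55.9% had a negative value. At an unadjusted p below 0.05 the Igk numbers were 7 lower and 1 higher of 23, where 14.5% of all deposited peaks were lower and 14.9% higher.

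Besides the peak at 70264477, the unfiltered fit called the last peak of the window, with a log2 fold change of -1.58 with an SE of 0.53 (adjusted p = 0.0410, edgeR). The other was the peak from 68630657 to 68631031, with 3, 0, 1 and 5 counts in old replicates 1 to 4 and 17, 5, 3 and 14 counts in young replicates 1 to 4. Old replicates 1 and 4 reached the counts of young replicates 3 and 2, so the groups overlapped, and its log2 fold change was -2.03 with an SE of 0.64 (adjusted p = 0.0316, edgeR). These calls rest on 45 and 48 counts in all. With no filter, the number of Igk peaks called lower was 0 without old replicate 3 or without young replicate 4, 1 without old replicate 2 or young replicate 1, 2 without old replicate 1, 3 without young replicate 2 or 3, and 4 without old replicate 4. The peak at 70264477 was among those called without old replicate 1, old replicate 2, young replicate 1 or young replicate 3. It was not among them without old replicate 4 (edgeR adjusted p = 0.0502) or young replicate 2 (0.0864). The share of all peaks called lower in these unfiltered fits with a library left out was not counted here. With the count filter that share was 15.5% without old replicate 4 and 6.90% to 10.5% with any other library left out.

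**Figure D3:**
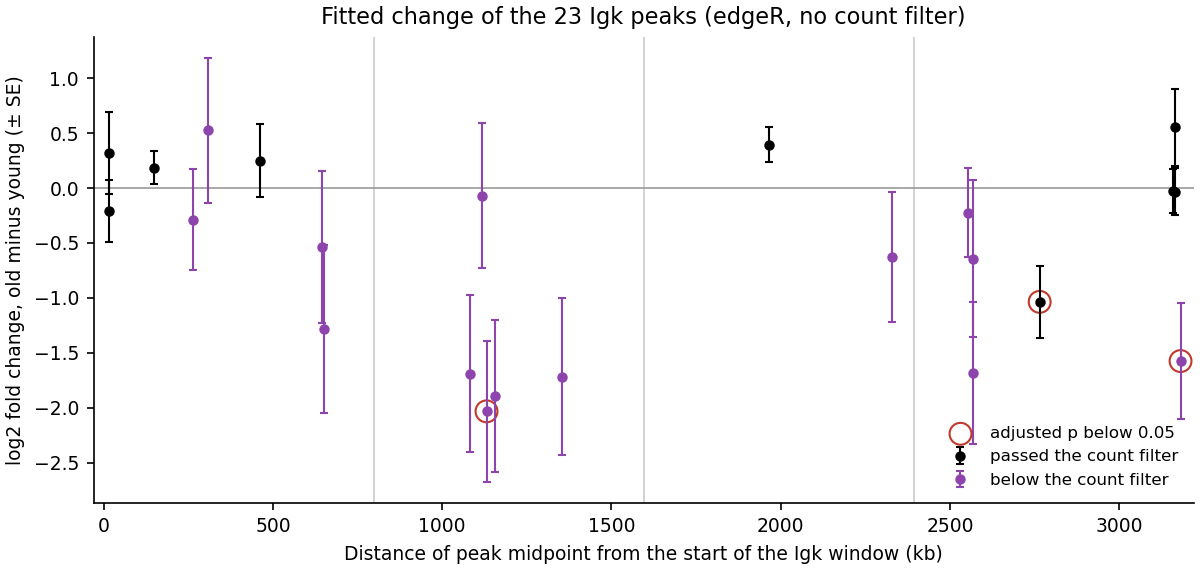
Log2 fold change, old minus young, with SE (y axis) of each Igk peak against distance from the window start (x axis, kb), from the edgeR fit with no count filter. Black points passed the count filter and purple ones did not, and red rings mark the 3 peaks with an adjusted p below 0.05; most purple points lie below zero.

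A split of the Igk peaks at the median of their mean levels over all 8 libraries was made after the values were seen. The 12 peaks with a mean of 0.551 to 1.32 CPM summed to 6.11, 5.68, 6.00 and 9.30 CPM in old replicates 1 to 4 and 16.8, 13.0, 10.8 and 15.3 CPM in young replicates 1 to 4. All old libraries lay below all young ones, with old replicate 4 the highest of the old and young replicate 3 the lowest of the young. The ratio of group means, old over young, was 0.485, and 0.427 to 0.520 with each library left out in turn. The 11 stronger peaks, which held 86.8% of the locus level, summed to 68.2 ± 1.79 CPM in the old and 67.8 ± 5.41 CPM in the young libraries (mean ± SD, n = 4 each), a ratio of 1.01, with overlapping groups. These 11 had means of 1.35 to 15.6 CPM, so the sum rests mostly on its strongest peaks. With no count filter 6 of the 11 had a negative log2 fold change and 5 a positive one. Among the 6 were the peak at 68630657 (-2.03), itself below the count filter, and the called peak (-1.04).

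Weak peaks also leaned lower in old HSCs outside the locus. The 30571 deposited peaks within the same range of mean level had a summed ratio, old over young, of 0.895 and a median log2 fold change of -0.17, with 55.9% below zero. Of the 12 weaker Igk peaks 91.7% were below zero, with a median of -0.96. The difference between these shares was not tested, since the members were chosen with earlier results in view and neighbouring peaks share their libraries.

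Over the whole window the Igk level was 73.6, 76.6, 73.1 and 76.7 CPM in old replicates 1 to 4 and 78.8, 87.5, 76.01 and 84.9 CPM in young replicates 1 to 4. The groups overlapped through old replicates 2 and 4 and young replicate 3. The means were 75.0 ± 1.91 CPM in the old and 81.8 ± 5.32 CPM in the young libraries (mean ± SD, n = 4 each), a ratio of 0.917, and 0.916 without old replicate 4. Without the called peak the ratio was 0.953.

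Along the window the level differed by stretch. In part 1 of 4 equal parts the sum of 8 peaks was 28.1 ± 1.28 CPM in the old and 27.0 ± 3.05 CPM in the young libraries (mean ± SD, n = 4 each). In part 3 the sum of 2 peaks, nearly all from the peak at 69466280, was 17.5 ± 1.31 CPM in the old and 14.2 ± 2.62 CPM in the young libraries. In both parts the groups overlapped, with ratios of means, old over young, of 1.04 and 1.23, and 1.06 and 1.23 without old replicate 4. In part 3 they overlapped only through old replicate 1 (16.04 CPM) and young replicate 3 (16.5 CPM). With either of these libraries left out, all old libraries lay above all young ones in part 3.

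Part 2 held 5 weak peaks between 68581755 and 68854519, with 6.28% of the locus level. Their counts summed to 11, 6, 7 and 20 in old replicates 1 to 4 and 48, 28, 13 and 43 in young replicates 1 to 4. In CPM this was 2.80, 1.26, 1.61 and 4.13 in old and 11.2, 5.89, 3.25 and 9.26 in young libraries, so the groups overlapped only through old replicate 4 and young replicate 3. The ratio of means, old over young, was 0.331, and 0.257 without old replicate 4 or 0.399 without young replicate 1. All 5 peaks had a negative log2 fold change with no count filter.

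Part 4, with the high-coordinate end of the V series and the J segments, held 8 peaks and summed to 25.5, 30.9, 23.3 and 28.1 CPM in old replicates 1 to 4 and 32.4, 37.0, 31.5 and 31.7 CPM in young replicates 1 to 4. All old libraries lay below all young ones, the closest pair being old replicate 2 and young replicate 3. The ratio of means was 0.813, and 0.806 without old replicate 4. The called peak is 1 of the 8 peaks. It averaged 3.02 CPM in the old and 6.28 CPM in the young libraries, where part 4 averaged 26.9 and 33.2 CPM. A sum of part 4 without the called peak is not given here, so a drop beyond that peak is not shown. With old replicate 3 left out and the scaling recomputed, the groups overlapped in part 4. The closest pair is kept in that setting, so the separation depends on the scaling. Among the part 4 peaks the one from 70066897 to 70067207 had 4, 2, 0 and 1 counts in old replicates 1 to 4 and 5, 5, 8 and 6 counts in young replicates 1 to 4. It and the called peak were the 2 of 23 Igk peaks with every old library below every young one in CPM, as were 9.93% of all deposited peaks. At the peak from 70066897 the margin was less than 1 count is worth, with old replicate 1 at 1.02 CPM and young replicate 2 at 1.05 CPM.

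**Figure D4:**
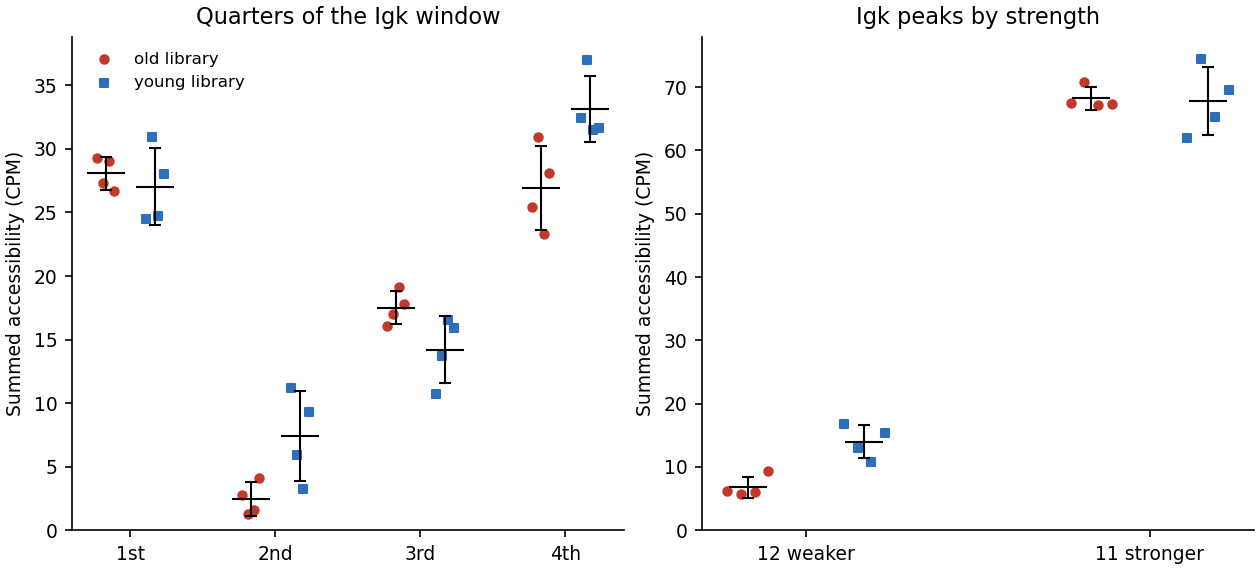
Summed accessibility (y axis, CPM from 0) of the Igk peaks in each old (red) and young (blue) library, in 4 equal parts of the window (left) and for the 12 weaker and 11 stronger peaks (right). Bars are means with SD (n = 4 each). Old libraries lie below young ones in the 4th part, which includes the called peak, and for the weaker peaks. They overlap them for the stronger peaks.

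A fit over 16764 tested windows of 100 kb gave 2 lower and 0 higher among the 8 tested windows inside Igk, where 14.7% of all tested windows were lower and 14.4% higher (edgeR adjusted p below 0.05). Over all windows the share called lower was 19.1% without old replicate 4 and 9.4% to 14.5% with any other library left out, the lowest without old replicate 2. At an unadjusted p below 0.05, 3 Igk windows were lower, against 20.7% of all tested windows. The window from 68600001 to 68700000, which holds 3 of the part 2 peaks, averaged 1.49 ± 0.932 CPM in the old and 4.14 ± 2.13 CPM in the young libraries (mean ± SD, n = 4 each). Its log2 fold change was -1.48 with an SE of 0.49 (adjusted p = 0.0327, edgeR). That call was lost without old replicate 1, 2 or 3 or young replicate 1 or 4, with log2 fold changes of -1.61, -1.09, -1.48, -1.17 and -1.41 in that order (edgeR adjusted p from 0.0580 to 0.113).

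The window from 70200001 to 70300000 holds only the called peak and repeats it, with a log2 fold change of -1.11 with an SE of 0.35 (adjusted p = 0.0252, edgeR). Its call was lost without old replicate 3 (log2 fold change -0.86) or young replicate 2 (-0.97). The window from 70600001 to 70700000, at the J end, averaged 19.9 ± 3.88 CPM in the old and 21.8 ± 1.12 CPM in the young libraries and was not called (edgeR adjusted p = 0.566). All of its 4 peaks lie inside the Igk window.

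The lambda locus held almost no signal in deposited peaks, and reads outside them were not measured. Its only peak, on chromosome 16 from 19078665 to 19078877, had 1, 5, 3 and 1 counts in old replicates 1 to 4 and 2, 2, 3 and 1 counts in young replicates 1 to 4. The groups overlapped, with means of 0.551 ± 0.399 CPM in the old and 0.463 ± 0.220 CPM in the young libraries (mean ± SD, n = 4 each). It did not pass the count filter, and with no filter the log2 fold change was 0.32 with an SE of 0.73 (adjusted p = 0.819, edgeR). The peak held 18 counts in all, and the SE was larger than the fold change. What difference could be detected at this depth was not tested. The ratio of means fell below 1 without old replicate 2. The nearest peaks outside the window lay 16631 bases before it and 400918 bases after it, and 0 of the 3 windows of 100 kb in the locus were tested.

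Beside the light chain loci, the heavy chain locus, which rearranges first in the B lineage, held more peaks and more lower ones. A window on chromosome 12 taken to hold Igh from general knowledge of mm9, whose first and last peaks lie at 114503294 and 117249411, had 173 peaks, or 62.9 per Mb. Of its 74 tested peaks 36 were lower and 0 higher in old HSCs (edgeR adjusted p below 0.05), with 45 lower and 0 higher at an unadjusted p below 0.05. Over all tested peaks 10.4% were called lower and 10% higher, and 16.7% and 16.5% at the unadjusted threshold. Summed over the window, accessibility was 538 ± 53.0 CPM in the old and 840 ± 41.2 CPM in the young libraries (mean ± SD, n = 4 each), a ratio of 0.641, against 0.917 at Igk. Old replicate 4 was the highest of the old at 617 CPM, and without it the Igh ratio was 0.614. The Igh calls are not given without it.

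Summed Igh levels were lower in old libraries at both strengths. Peaks with a mean level in the range of the weaker Igk peaks had a summed ratio of 0.651 (63 peaks), and those above that range 0.640 (102 peaks), the other 8 lying below it. At Igk these ratios were 0.485 (12 peaks) and 1.01 (11 peaks). The difference between the loci was not tested. In the 1 Mb on each side of Igk 8 of 78 tested peaks were higher and 13 lower, and in that around Igl 10 of 103 were higher and 11 lower. The lower ones were 16.7% and 10.7% of those tested, against 10.4% over all tested peaks, where 10% were higher.

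**Figure D5:**
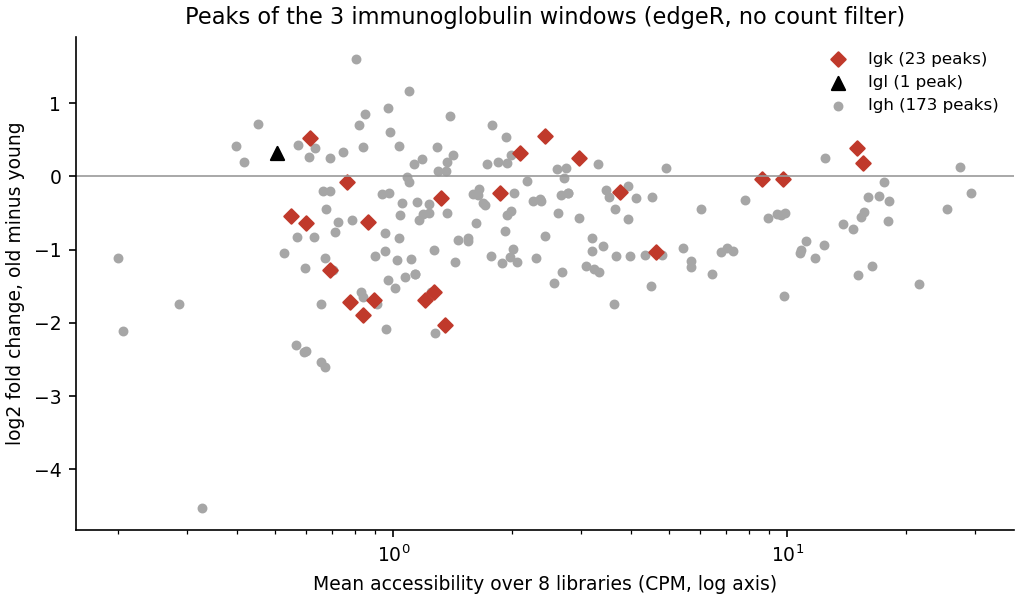
Log2 fold change, old minus young, from the edgeR fit with no count filter (y axis) against mean accessibility over 8 libraries (x axis, CPM, log axis) for peaks of the Igk (red diamonds), Igl (black triangle) and Igh (grey circles) windows. Igk peaks above 2 CPM lie between -0.21 and 0.55 apart from the called one, while Igh peaks lie mostly below zero across the range.

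The windows of 100 kb whose log2 level over the 8 libraries was most like the summed Igk level, by Pearson's r among 16756 windows, lay on chromosome 7 from 66000001 to 66100000 (r = 0.989), on chromosome 7 from 123200001 to 123300000 (r = 0.967) and on chromosome 8 from 127300001 to 127400000 (r = 0.966). For Igl the 3 highest values were 0.953 to 0.965 and rest on 18 counts of 1 peak. They are the highest of many such values over only 8 libraries, which share depth and group, and are given as a description.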

How the data were processed

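Omni-ATAC libraries were made with a Nextera kit, per the labels' protocols. The submitters' processing notes name Bowtie2, MACS2, Picard, SAMtools, FastQC and Trim Galore, and mm9 as the build. Peak merging, the read counter and any shift of read ends for the transposase were not given in the sources used here. The authors deposited raw whole-number counts per peak for 8 libraries, over 1 shared peak set. A peak set made from the compared libraries can favour peaks open in either group.

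The groups were compared in R 4.3.3 with edgeR 4.0.16 (glmQLFit, robust, and glmQLFTest, group as the only term, TMM scaling). Peaks were kept with filterByExpr (minimum count 10, minimum total 15), which left 73164 peaks with 94.2% of the counts. P-values were Benjamini-Hochberg adjusted over all of them. Sums over members were not tested. Alternatives used DESeq2 1.42.0, limma 3.58.1, other scalings and filters, a replicate block and each library left out.

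Peaks described singly are all called members, the 6 strongest at Igk, the only peak at Igl (the rule allowed up to 4), those in the last 30 kb of Igk and those at each boundary. Further weak peaks were named after their values were seen. Members and lists were chosen with earlier results of these data known. Markers of HSCs and of B and T cells, and sequences under the peaks, were not analysed here because no mm9 annotation or genome was used. A part of B-lineage cells in the levels was not tested.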

Additional observations from a re-analysis of the deposited data

Results flagged for a closer look

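Each group of 4 values was searched for a library lying apart from its fellows. Of 40 groups 4 had such a library, and chance alone flags about 1 in 20. Old replicate 4 was high in the summed level of the 12 weaker Igk peaks, at 9.30 CPM, while the other old libraries had 5.68 to 6.11 CPM. Old replicate 2 was high in the sum of the 11 stronger Igk peaks, at 70.9 CPM, the others having 67.1 to 67.5 CPM. Young replicate 2 was high in part 4 of the Igk window, at 37.0 CPM, the other young libraries having 31.5 to 32.4 CPM. Young replicate 1 was high at the peak on chromosome 6 from 70663191 to 70663452, at 2.80 CPM, the other young libraries having 1.68 to 1.75 CPM.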

How the results depend on the processing

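The number of Igk peaks called lower in old HSCs was 1, and 0 to 1 with each library left out in turn. It was 3 with no count filter, and 0 with DESeq2's test, at an adjusted p below 0.01 and with a mean count of at least 50, which leaves the called peak untested. Over all peaks the share called lower was 7.69% with no count filter and 7.13% with DESeq2's test. The number of Igk windows called lower was 2, and 0 to 2 with each library left out. It was 0 at an adjusted p below 0.01. It was also 0 with a mean count of at least 50, which leaves the called windows untested. The log2 ratio of the summed Igk level, old over young, was -0.13, and 0.053 over only the peaks passing the count filter, from which most weak peaks are missing. With each library left out it was -0.16 to -0.095. That of the Igl peak was 0.25, and -0.26 to 0.59 with each library left out. No Igk or Igl peak or window was called higher under any alternative run. At the peak from 70659271 the log2 fold change of -0.06 turned to 0.081 without old replicate 1 and 0.015 without old replicate 3, in a range of -0.21 to 0.081. At the peak from 70664238, -0.07 turned to 0.062 without old replicate 1, 0.0022 without old replicate 4 and 0.030 without young replicate 2, in a range of -0.215 to 0.062. With a replicate block 1 Igk peak (edgeR adjusted p = 0.0109) and 2 Igk windows were called lower, and no call changed. Over all tested peaks and windows 11.8% and 16.4% were then called lower. In the labels same-numbered libraries share only that number. Their deviations correlated at -0.0140 to 0.179. Old replicates 1, 2 and 3 each correlated best with young replicate 2 (0.0204, 0.0736 and 0.0788). Old replicate 4 correlated best with young replicate 4 (0.179), so these values do not settle whether the numbers pair the libraries. Depth limits the 14 Igk peaks and the Igl peak below the filter, where 1 count moves a level by 0.207 to 0.255 CPM.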
